A study of Mus musculus with 16 samples.

Results

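Acetylation of lysine 27 on histone H3 (H3K27ac) was mapped in pachytene spermatocytes, and 8332 autosomal regions under 4 kb carried a called peak in all 4 libraries. The members were chosen by merging the 4 peak lists on chromosomes 1 to 19 wherever peaks overlapped by 1 bp or more, and keeping merged regions with a peak in every list and a length under 4000 bp. They make up 8332 of 9763 shared autosomal regions, of 33417 merged autosomal regions and of 39460 merged regions on all sequences. Presence in each list and length are therefore given by the choice and are described here without a test.

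The spermatocytes were isolated by STA-PUT sedimentation from C57BL/6J testes of mice aged 8 to 12 weeks, with 1 male per preparation according to the protocol. Of the 4 chromatin libraries, 2 were wild type and 2 came from repro9/repro9 animals, which are mutant for A-myb (Mybl1). The libraries came from native chromatin cut with micrococcal nuclease and an antibody against H3K27ac. The series also holds RNA-seq of J1 embryonic stem (ES) cells, a 129S4/SvJae line at passage 36, all carrying dCas9-VPR, a deactivated Cas9 fused to transcriptional activators, and a guide RNA to the RLTR10B2 repeat. On day 3 these were sampled as control, with doxycycline (Dox), with A-MYB and with both, 2 libraries each. The labels do not say which of these libraries were separate cultures, so the spread between them may be technical. The repro9 mutation is carried in every cell of the animal, and the study's sort selects pachytene cells from each genotype by size.

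H3K27ac is laid down mainly by the acetyltransferases p300 and CBP, and it marks nucleosomes at active promoters and enhancers in most cell types studied. A-MYB is a transcription factor of the MYB family that becomes abundant at pachytene, where it drives genes of meiosis, of the piRNA pathway and of later sperm development. Male mice lacking its function arrest in meiosis. Pachytene is the stage of meiotic prophase at which homologous chromosomes are fully paired and autosomal transcription is high.

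Few members lay at gene promoters, so the promoters that did are shown first. Of 8023 members on the 18 autosomes with gene starts used here, 48 held a RefSeq gene start, and these starts belonged to 54 genes, 29 of them protein-coding and 25 long noncoding RNA (lncRNA) genes. The sequences printed are the 250 bases upstream of the start, 5′ to 3′ on the gene's strand, from RefSeq on GRCm38.p6. A start counts as in a member if the merged region holds it, even where the peak of some list does not reach it. The sequences were chosen after their values were seen, to show histone promoters that recur among the members and the promoters of 2 genes active in most cells. The last is a predicted coding gene, whose member ranked first for fold among these 48 by its lowest within-list percentile. In the first, second and last, capitals mark CCAAT or TATAAA on either strand, and in the others they mark GGGCGG or CCGGAAG on either strand.
H2bc22, chr13:21787238-21787487, + strand: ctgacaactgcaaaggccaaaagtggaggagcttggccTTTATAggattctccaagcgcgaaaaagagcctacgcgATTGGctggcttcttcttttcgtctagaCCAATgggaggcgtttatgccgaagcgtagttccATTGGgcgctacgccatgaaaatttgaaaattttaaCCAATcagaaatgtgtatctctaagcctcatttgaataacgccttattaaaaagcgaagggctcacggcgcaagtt
H3c2, chr13:23752095-23752344, + strand: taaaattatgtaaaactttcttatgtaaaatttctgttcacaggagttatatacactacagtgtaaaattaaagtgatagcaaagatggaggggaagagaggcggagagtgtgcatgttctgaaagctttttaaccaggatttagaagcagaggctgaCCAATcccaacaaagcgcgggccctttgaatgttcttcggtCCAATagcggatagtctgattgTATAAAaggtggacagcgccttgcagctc
Rps2, chr17:24719813-24720062, + strand: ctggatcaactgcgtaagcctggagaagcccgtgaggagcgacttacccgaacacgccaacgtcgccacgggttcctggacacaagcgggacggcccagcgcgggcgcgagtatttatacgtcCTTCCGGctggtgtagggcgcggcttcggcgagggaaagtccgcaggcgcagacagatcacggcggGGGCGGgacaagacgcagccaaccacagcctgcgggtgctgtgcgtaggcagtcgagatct
Hmox2, chr16:4756696-4756945, + strand: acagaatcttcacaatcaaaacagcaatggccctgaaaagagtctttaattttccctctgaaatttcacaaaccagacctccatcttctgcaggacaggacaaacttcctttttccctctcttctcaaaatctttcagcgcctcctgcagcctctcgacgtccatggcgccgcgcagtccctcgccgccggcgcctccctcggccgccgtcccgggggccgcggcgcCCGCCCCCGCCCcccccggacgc
Gm32584, chr5:36661659-36661908, - strand: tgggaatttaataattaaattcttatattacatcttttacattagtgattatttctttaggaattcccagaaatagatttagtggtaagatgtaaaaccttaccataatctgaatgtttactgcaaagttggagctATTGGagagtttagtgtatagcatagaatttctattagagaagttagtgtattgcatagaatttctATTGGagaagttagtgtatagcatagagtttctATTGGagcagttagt
The H2bc22 window carries 4 CCAAT matches and the H3c2 window 2. The 2 GGGCGG matches of Hmox2 lie 23 and 17 bases upstream of its start. GC content runs from 29.2% in the Gm32584 window to 65.2% in that of Rps2. These 2 windows reach outside their members. The Rps2 member starts at base 24720047, and both marked Rps2 strings lie before it. The Gm32584 member ends at base 36661725, and the CCAAT match farthest upstream lies beyond it.

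Merged length among the members ran from 598 to 3998 bp, with a median of 1812 bp, a 10th percentile of 1048 bp and a 90th percentile of 2959 bp. In all they cover 16.0 Mb, or 0.652% of the autosomes measured to their last annotated gene. The length distribution has its bulk below 3 kb and a long low tail that the threshold crosses without a gap. Just inside it lay regions of 3994 bp (chr8:62864538-62868531, nearest gene start Spock3) and 3998 bp (chr7:98006846-98010843, nearest Gdpd4). Just outside lay regions of 4001 bp (chr1:89199464-89203464, nearest Sh3bp4) and 4003 bp (chr6:90032273-90036275, nearest Vmn1r48). The shortest member, of 598 bp at chr5:83708653-83709250, had 52, 39, 38 and 40 tags in wild-type libraries 1 and 2 and mutant libraries 1 and 2. The next shortest, both of 685 bp, were chr3:57147480-57148164 and chr1:110612931-110613615.

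**Figure D1:**
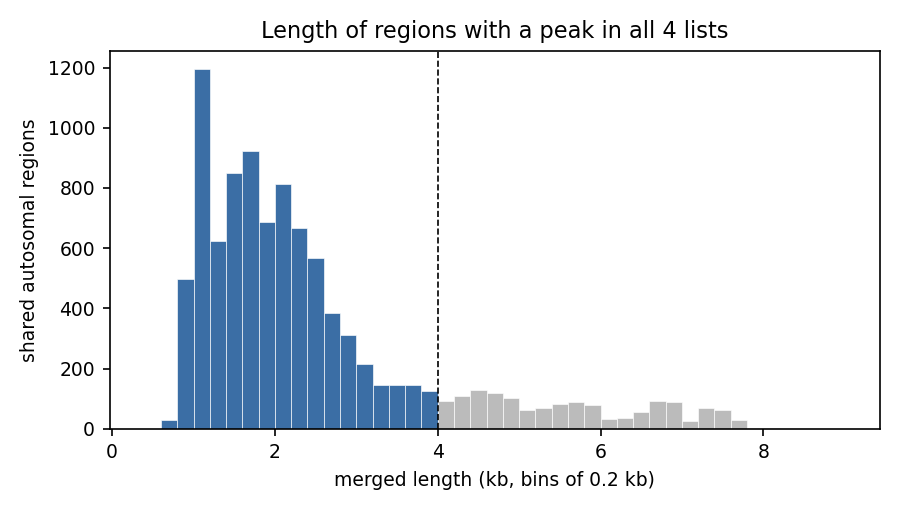
Number of shared autosomal regions (y axis) by merged length in bins of 0.2 kb (x axis). The dashed line is the 4 kb threshold. The 8332 members are in blue and the 1431 longer shared regions in grey, and no gap in the distribution sets the 2 apart.

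Most members were simple in structure, with 7877 (94.5%) holding exactly 1 peak in each list. The lists held 29042 and 24130 peaks in wild type and 22397 and 21269 in the mutant, and 8445, 8417, 8557 and 8551 of these peaks lay in members. A tag is a mapped read counted in a peak by the authors' peak caller. Members took 29.6% and 33.4% of the peak tags of the wild-type libraries and 36.9% and 38.6% of those of the mutant libraries, so their share was higher in both mutant libraries, whose lists were shorter. Counts of tags in members were 956158 and 818516 in wild type and 796619 and 751791 in the mutant.

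Among the peaks of a list, the members ranked high for the deposited fold, while the longer shared regions ranked low. The median fold of a member's strongest peak was 5.68 and 5.61 in wild type and 4.98 and 5.04 in the mutant, where fold is the ratio that the authors' peak caller reports. The libraries above and below that ratio are not stated in the sources used here, and with the roles turned a high fold would mean input over H3K27ac. Ranked within each list, this put the median member at the 70.3 and 68.4 percentile in wild type and at the 60.5 and 60.1 percentile in the mutant. For shared regions of 4 kb or more the same percentile was 16.1 to 18.3 in the 4 lists. Tags per covered kb ran the other way, at medians of 68.6, 58.3, 61.0 and 59.8 in members against 79.2, 67.4, 67.3 and 65.4 in the longer regions. Since length divided these 2 classes and peak length, fold and tags come from the same reads, these values are a description.

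The 10 members ranked first for fold were 841 to 1472 bp long, and their 4 summits spanned 3 to 118 bp. The member ranked first by its lowest within-list percentile, chr9:35304779-35306082, lies 11869 bp from the nearest gene start, that of Gm33974. Its fold was 21.73 and 23.05 in wild type and 27.58 and 26.33 in the mutant, its tags were 226, 228, 234 and 230, and its 4 summits fell within 3 bp. The second, chr12:97061046-97062188, stood 678047 bp from its nearest start, that of Gm35274, with folds of 23.36, 22.18, 24.83 and 24.07. The nearest starts of the others were those of Rab10os, Ly6c2, Txndc11, Filip1l, Brox, Gm46796, Gm32584 and Vps45. None of the first 10 held a gene start, and the closest lay 1485 bp from that of Brox. The member with the most tags in the wild-type libraries, chr2:98666224-98667727, had 872, 879, 892 and 900 tags, or 634.2, 601.6, 678.3 and 598.4 per covered kb. The member at chr9:3022922-3026448 had 865, 860, 944 and 917, more than the former in both mutant libraries. No list of artefact-prone regions and no repeat annotation was used here, so what such dense regions contain was not tested.

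Summit positions in members were closest between the wild-type libraries. The median distance between strongest summits was 36 bp between the 2 wild-type libraries, 50 bp between the 2 mutant libraries and 50 to 53 bp for the pairs across genotypes. The distance was at most 50 bp in 59.3% of members between wild-type libraries, in 50.5% between mutant libraries and in 48.6% to 50.4% across genotypes. All 4 summits lay within 50 bp in 1848 members (22.2%), and the median span of the 4 was 131.5 bp. The Spearman correlation of tags across members was 0.875 between wild-type libraries, 0.778 between mutant libraries and 0.738 to 0.746 across genotypes. These pairs share libraries, and members of a library share its depth, so no test is given.

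Gene starts were sparse in the members, which goes against the usual promoter pattern of this mark. The sources used here do not say which library was treatment and which control in each peak call, so whether a peak stands for H3K27ac over input or the turned ratio cannot be told from them. A start lay inside 48 of 8023 members (0.598%, 95% Wilson interval 0.452 to 0.792, counting error only), within 1 kb of 104 (1.30%) and within 10 kb of 925 (11.5%), and the median distance to the nearest start was 66.2 kb. Members held 3.95 start positions per Mb, against 13.2 per Mb along these autosomes. Of the bases in members, 0.609% lay within 1 kb of a start, against 2.24% of autosomal bases, and the shares within 100 kb were 60.3% and 67.5%. Protein-coding gene bodies took 24.9% of member bases and 40% of autosomal bases, while pseudogene bodies took 1.94% and 1.14%. The low share of starts was not particular to the members, as all merged autosomal regions held one in 1.41%, the longer shared regions in 2.18%, regions of both wild-type lists alone in 1.88% and regions of both mutant lists alone in 0.290%. In the full lists, peaks held 1.48% and 0.781% of the 31360 start positions in wild type and 0.380% and 0.344% in the mutant. The table of starts covers 81.7% of protein-coding genes on these autosomes, and chromosome 18, with 309 members, has no starts in it.

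**Figure D2:**
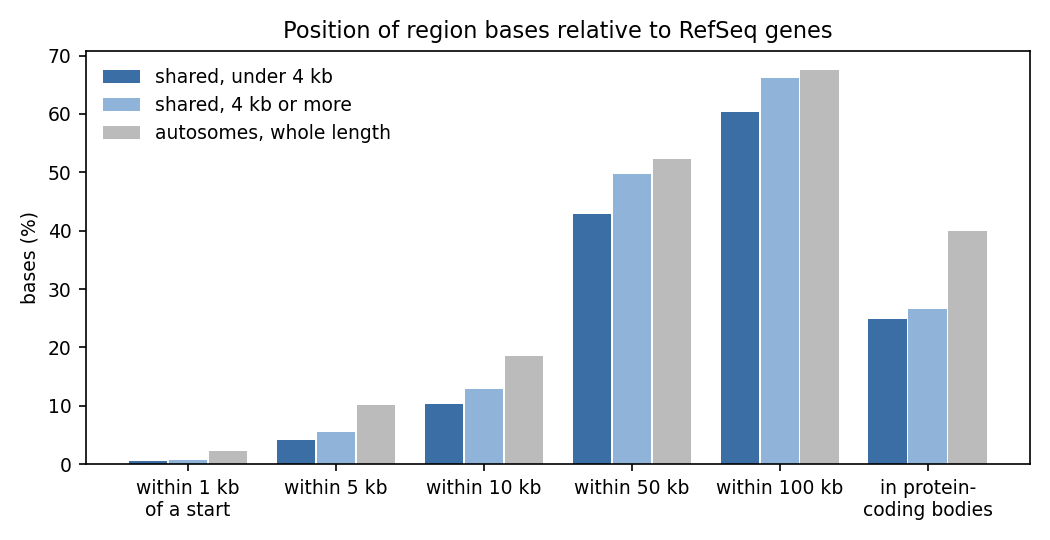
Share of bases (y axis, percent) within 1, 5, 10, 50 and 100 kb of a RefSeq gene start and inside protein-coding gene bodies, for members (dark blue), shared regions of 4 kb or more (light blue) and the autosomes (grey). Member bases have the smallest share of the 3 at each distance and in gene bodies, for example 10.3% against 18.6% of the autosomes within 10 kb.

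Markers of the labelled cell type did not carry these regions at their starts. None of 30 meiotic prophase genes with a start in the table, among them synaptonemal complex and recombination genes, held it in a member, and none had a member within 10 kb of it. Starts of 3 of them, Tex12 (a synaptonemal complex protein), Smc1b (a meiotic cohesin subunit) and Piwil1 (a PIWI protein that binds pachytene piRNAs), lay in merged regions not shared by all lists. That is 10% with a start in any merged region, against 354 of 16457 protein-coding genes (2.15%). The same count was 2 of 24 spermatid genes (8.33%), 1 of 20 piRNA pathway genes (5%) and 0 or 1 gene in each other list. Each share thus rests on few genes, and a share above that of all genes was not particular to the meiotic list. No start of the 20 piRNA pathway genes, 24 spermatid genes, 15 spermatogonial genes or 15 genes of somatic testis cells lay in a member. Within 10 kb of a member were the starts of Henmt1, the methyltransferase that protects piRNA ends, of the spermatid genes Tnp1 (a transition protein that replaces histones) and Spaca7, and of Hsd3b1, a steroid synthesis enzyme from the somatic list. Of all protein-coding genes with a start, 646 of 16457 (3.93%) had a member within 10 kb of it. The lists for heat shock, splicing, chromatin cofactors, cell cycle and cilium gave 0 starts in members. Of 23 ribosomal protein genes with a start, Rps2 alone held it in a member. Across all protein-coding genes with a start the count was 29 of 16457 (0.176%), so lists of this size would hold few by that rate alone.

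Around 4 genes of pachytene cells, members were found near 1. Measured from the gene body, 3 members lay within 100 kb of Mybl1 (chr1:9667407-9700439), the gene of A-MYB itself, and the nearest, chr1:9715256-9716601, was 14.8 kb away. No member lay within 100 kb of Hspa2 (a chaperone of spermatocytes), Sycp3 (a lateral element protein of the synaptonemal complex) or Piwil1, whose nearest members were 247, 320.6 and 188.2 kb away. Over the autosomes there were 3.39 members per Mb, with a median gap of 167 kb between neighbours. Whether the count near Mybl1 departs from that density was not tested.

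Where members did hold coding starts, replication histone genes were the largest named group. Genes with a histone symbol had 9 of 68 starts in a member (13.2%), all 9 among the 51 on chromosome 13 and none among the 17 elsewhere. Merged regions of any kind, members included, held 30 of the 68, with 24 of the 51 on chromosome 13 and 6 of the 17 elsewhere. Over all protein-coding genes with a start, 0.176% had it in a member and 2.15% in any merged region. The histone symbols were gathered after the starts in members were seen. The list of 20 histone genes chosen earlier had 0 of 17 starts in a member and 3, those of H1f5, H2ac4 and H4c1, within 10 kb. The 9 starts fell in 5 members, of which 2 held an H2A and an H2B gene and 1 held an H2A and 2 H4 genes. Histone genes of a cluster are near-identical copies, so the assignment of reads among them is uncertain.

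The 5 histone members varied between libraries, and none passed the test. Scaled tags below are tags divided by the library total after TMM scaling, given per 1e+06. The member at H2ac22 and H2bc22 (chr13:21786614-21788295) had 100 and 41 tags in wild type and 91 and 54 in the mutant, or 69.0, 32.8, 74.8 and 47.3 scaled tags, so the genotypes overlap. That at H2ac12 and H2bc12 (chr13:22034824-22036595) had 109 and 41 against 93 and 90 tags, or 75.2, 32.8, 76.5 and 78.8 scaled, with both mutant libraries just above. That at H2ac24, H4bc24 and H4c18 (chr13:21831564-21835051) had 134 and 92 against 112 and 213, or 92.5, 73.6, 92.1 and 186.4 scaled, which overlap. At H3c2 (chr13:23752060-23753013) tags were 51 and 40 against 44 and 42, or 35.2, 32.0, 36.2 and 36.8 scaled, with the mutant libraries above (log2 change 0.11, SE 0.130, edgeR adjusted p 0.838). The member at H2ac6 (chr13:23683191-23684882) had both mutant libraries below both wild-type ones, with 78 and 71 against 42 and 39 tags, or 53.8, 56.8, 34.5 and 34.1 scaled. Its log2 change was -0.69 (SE 0.154), with an adjusted p of 0.218 in edgeR.

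Among the other starts in members, Rps2, a protein of the small ribosomal subunit, had 134 and 112 tags in wild type and 61 and 49 in the mutant (chr17:24720047-24721749). The mutant libraries were both lower, by a log2 change of -0.97 (SE 0.195), and the adjusted p in edgeR was 0.208. Covered length at Rps2 was 1602 and 1689 bp in wild type and 881 and 985 bp in the mutant, and the authors' fold was 8.9 and 9.09 against 10.29 and 9.43. The member at Hmox2 (chr16:4755726-4757085), which encodes a constitutive heme oxygenase, had 131 and 92 tags in wild type and 101 and 87 in the mutant, which overlap with and without scaling. At Fut8 (chr12:77410090-77411623), a fucosyltransferase that modifies N-glycans, tags were 108 and 95 against 100 and 90, or 74.5, 76.0, 82.2 and 78.8 scaled (log2 change 0.10, SE 0.178). At Gm32584 (chr5:36660724-36661725) they were 68 and 72 against 88 and 72, with folds of 11.47, 12.04, 15.88 and 13.11. Other coding starts in members included those of Hexdc, Zfp982, Slc24a3, Olfr1381 and Serpinb1c, and most of the rest carried predicted gene names.

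The promoters at these 48 members were compared with all promoters for base content and for short motifs, as a description with no test. The 61 promoter windows with their start in a member run from 250 bases before to 50 after it, and can reach outside the member. Their median GC content was 48.3%, against 53% over all 31396, and for the 35 windows of protein-coding genes 48% against 57%. For the 26 windows of lncRNA genes it was 48.5% against 48.3%. GGGCGG, the GC box, was found in 14.8% of them against 35.98% of all. CCAAT was found in 57.4% against 37.3%, and TATAAA in 23.0% against 13.6%. CAACTG, a MYB-type string, was in 19.7% against 13.4%, CAACGG in 4.92% against 5.09%, TAACTG in 4.92% against 10.2% and TAACGG in 6.56% against 2.74%. The ETS string CCGGAAG was in 3.28% against 9.004%, TGACGTCA in 1.64% against 1.83% and the NRF1 motif in 0 of 61 against 0.968%. All strings were searched on both strands, overlapping matches of different strings were kept, and the member windows include several of the histone cluster, which share sequence.

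Those of the same genes that were matched in the ES tables were mostly below 1 CPM in the ES cells, a different cell type. Of the 54 genes, 21 were matched in the ES tables, and 5 of them (23.8%) reached 1 CPM (the count scaled to the library total) in both control libraries, against 54.4% of 16836 genes with a start. Those 5 were Rps2 at 1425 ± 28.4 CPM, Hmox2 at 47.1 ± 0.866, Fut8 at 23.3 ± 0.142, Zfp982 at 15.1 ± 0.236 and Hexdc at 6.35 ± 1.38 CPM (SD, n = 2). CPM is not divided by gene length, so these levels do not rank the genes. With Dox and A-MYB together, 8 of the 21 genes (38.1%) reached 1 CPM in both libraries, against 58.05% of all genes with a start. Zfp982, a zinc finger gene, had 15.3 and 15.0 CPM in control, 32.2 and 26.2 with Dox, 45.1 and 37.4 with A-MYB and 61.7 and 47.4 with both. Its control libraries were below all others. The gene was singled out after its values were seen, so no test is given. Its member (chr4:147442883-147445361) had 112 and 108 tags in wild-type and 110 and 135 in mutant spermatocytes. The histone genes were at or below 0.533 CPM on average in control, and replication histone transcripts lack the poly(A) tail that many RNA-seq protocols select. Within 10 kb of a member, 38.5% of 646 genes reached 1 CPM. Seen from the genes, 2.72% of the 9153 at 1 CPM or more in control had a member within 10 kb of a start, against 5.17% of the 7683 below.

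Along the chromosomes, the density of members was lower on most gene-rich autosomes. Their density was 3.39 per Mb over the autosomes, from 2.21 on chromosome 11 and 2.59 on chromosome 19 to 3.90 on chromosome 16 and 3.995 on chromosome 3. Chromosome 11 has 13.2 protein-coding genes per Mb and chromosome 3 has 6.15. Across the 19 autosomes the Pearson correlation of member and gene density was -0.74 and Spearman's was -0.62, given as a description, since the chromosomes share libraries and differ in base composition. For the longer shared regions Spearman's correlation was 0.18. Chromosome 7 departs from this, with 14.0 genes and 3.21 members per Mb, and so do the most gene-poor autosomes, 18 and 12, with 3.41 and 3.32 members per Mb, close to the mean.

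**Figure D3:**
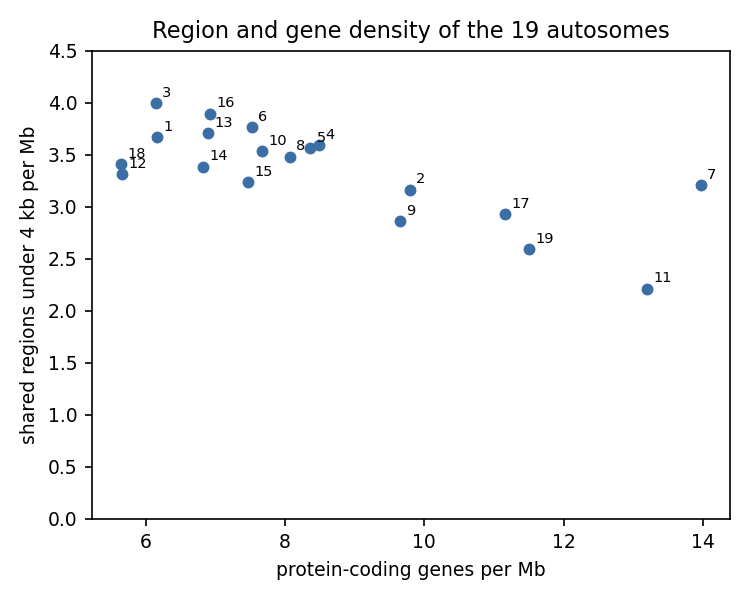
Members per Mb (y axis) against protein-coding genes per Mb (x axis) for each of the 19 autosomes, labelled by number, 1 point a chromosome. Chromosome 11 is lowest at 2.21 members per Mb, and chromosome 7 stands off at the right with 3.21.

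Members were spread singly along the chromosomes. The median gap between neighbours was 167 kb, 418 of 8313 gaps (5.03%) were under 10 kb, and the widest was 6.38 Mb. A protein-coding gene body was overlapped by 2115 members (25.4%), in 1417 genes. The counts were highest in very long genes, chosen here after the counts were seen: Lrp1b (a lipoprotein receptor relative) had 15 members along 2.06 Mb, Cntnap2 (a neurexin-type adhesion protein) 13 along 2.24 Mb, Pcdh15 (a protocadherin of hair cells) 13 along 1.55 Mb, and Agbl4 and Ccser1 11 each. Per Mb these come to 7.29 in Lrp1b, 5.80 in Cntnap2, 8.37 in Pcdh15, 8.68 in Agbl4 and 9.15 in Ccser1, all above the autosomal density. Genes were picked for their count, so no test is given.

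The question of the genotypes is whether H3K27ac in shared regions depends on A-MYB. Regions without a called peak in some library are left out by the choice, among them 3078 in both wild-type lists only and 1432 in both mutant lists only. The tags thus cannot show regions lost or gained as a whole. They were also summed within each library's own peaks, not over a common window. For the shared regions, the tags can answer the question only if they count reads of the H3K27ac libraries. The sources used here do not say so, and with the roles turned the tags would be of input. No member passed an adjusted p of 0.05 for tags in mutant against wild type, in edgeR's quasi-likelihood test over all 9763 shared regions, of which 0% were called. The smallest adjusted p was 0.179. Without adjustment, 603 members were higher and 505 lower at a p under 0.05, against 6.92% and 6.52% of all shared regions. DESeq2 called 11 members higher and 10 lower at an adjusted p under 0.05, against 17 and 25 (0.174% and 0.256%) of all shared regions. The median log2 change was 0.02, with a 10th percentile of -0.44 and a 90th of 0.53. TMM scaling over these same shared regions centres the log2 changes, so a change common to all of them could not show in the median. Both mutant libraries stood above both wild-type ones in 2151 members (25.8%) and below in 1964 (23.6%), against 24.7% and 23.8% of all shared regions. Most shared regions are members, so these shares are close by construction. In the longer shared regions they were 18.5% above and 24.9% below.

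The members with the smallest p differed in covered length as well as in tags. They were chosen after their values were seen, and each had an edgeR adjusted p of 0.179. DESeq2 gave the members named in this paragraph adjusted p-values from 0.00216 to 0.0295. At chr4:134159150-134163030, nearest to the start of Cep85, tags were 267 and 234 in wild type and 66 and 65 in the mutant (log2 change -1.74, SE 0.159). Its called peaks covered 3839 and 3769 bp in wild type and 1228 and 1101 bp in the mutant, and the groups overlap in neither tags nor covered length. Scaled tags per covered kb were 48.0, 49.7, 44.2 and 51.7, which overlap, and with covered length as an offset the log2 change was -0.03 (SE 0.128, edgeR adjusted p 0.916). At chr11:6238316-6241834, nearest to Npc1l1 (a cholesterol transporter), tags were 236 and 206 against 68 and 57. At chr2:56798048-56801461, which holds the start of the lncRNA Gm33458, they were 311 and 280 against 83 and 92. In the other direction, chr11:18685404-18688214, nearest to Gm31674, had 46 and 42 tags in wild type and 152 and 118 in the mutant (log2 change 1.80, SE 0.209), with covered lengths of 912, 905, 2781 and 2119 bp. At chr14:102849093-102851340, nearest to Gm34589, tags were 57 and 44 against 138 and 125, and at chr5:78416855-78418931, nearest to Gm34912, 63 and 47 against 134 and 127. With covered length as an offset, the Gm33458 member had a log2 change of -0.435 (SE 0.112, edgeR adjusted p 0.0314). The other members named in this paragraph had edgeR adjusted p-values from 0.185 to 0.984 under the offset.

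Across members, the log2 change in tags followed the log2 change in covered length, with a Pearson correlation of 0.865 over 8332 members. The 2 measures come from the same peak calls, so this is a description. With covered length as an offset in edgeR, which tests tags per called base, 172 members were higher and 39 lower in the mutant at an adjusted p under 0.05, against 2.05% and 0.522% of all shared regions, and the median over shared regions moved from 0.01 to 0.11 on the log2 scale. Changes under the offset are thus read against that shift. The member nearest to Vps45 (chr3:96044079-96045453), a vesicle trafficking gene, had 107 and 107 tags per kb in wild type and 184.9 and 160.1 in the mutant (log2 0.89, SE 0.102, edgeR adjusted p 1.21e-06). The member nearest to Zswim6 (chr13:107858153-107860248) had 126 and 100.2 against 61.5 and 54.2 per kb (log2 -0.77, SE 0.113, edgeR adjusted p 1.11e-04), and that nearest to Apba1 (chr19:23750245-23754183) 115.8 and 95.1 against 68.0 and 61.3. Each was singled out after its values were seen. Since the peak caller set the covered length from the same reads, the offset is not an independent measure. With it, edgeR's biological coefficient of variation was 0.00988, against 0.177 without it. SEs and p-values under the offset therefore do not measure the spread of tags between animals.

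**Figure D4:**
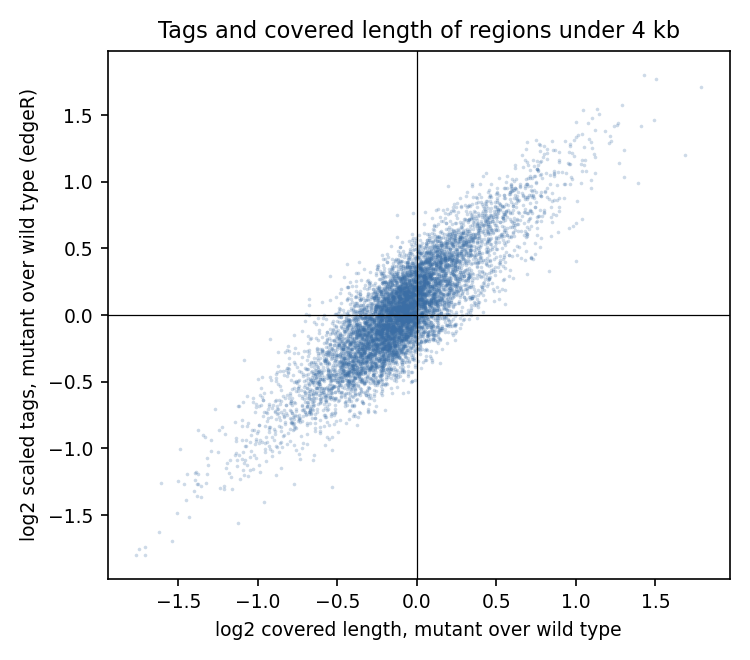
Log2 change of scaled tags, mutant over wild type (y axis, edgeR), against log2 change of covered length (x axis), 1 point for each of the 8332 members. The points follow a diagonal (Pearson correlation 0.865), and no member passed the adjusted threshold for tags in the main edgeR test.

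Per library, covered length was shorter in both mutant libraries. The median member was covered over 1444.5 and 1468 bp in wild type and 1391.5 and 1334 bp in the mutant, with means of 1456 ± 16.6 and 1363 ± 40.7 bp (SD, n = 2). The difference of -93.5 bp had an exact permutation p of 0.333 (two-sided), which is the smallest that 2 libraries against 2 allow. Tags per covered kb, not scaled for depth, overlapped between genotypes, at 63.4 ± 7.33 in wild type and 60.4 ± 0.817 in the mutant (SD, n = 2), with an exact permutation p of 1 (two-sided). Wild-type library 1 was the highest in tags per kb, and it also had the most tags in its list. The part of depth in these values was not tested.

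**Figure D5:**
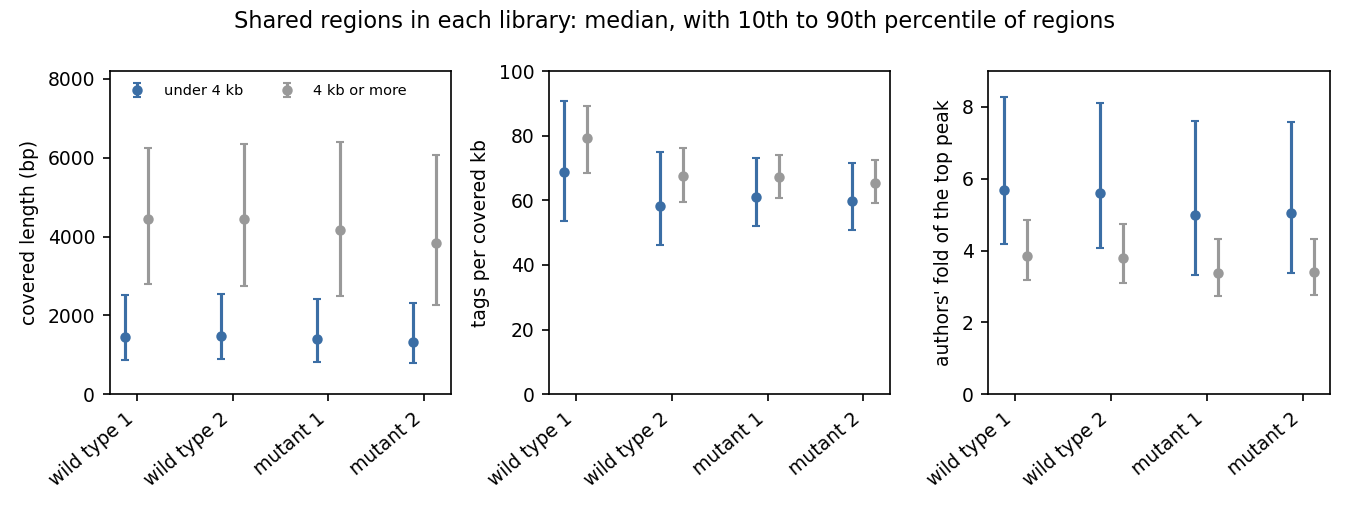
Covered length, tags per covered kb and the authors' fold of the strongest peak in each library, for members (blue) and shared regions of 4 kb or more (grey). Points are medians over regions and bars span the 10th to 90th percentile of regions, not replicate error. The median member is shorter, less dense in tags and higher in fold than the median longer region in every library.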

How the data were processed

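Reads were processed by the authors with bcl2fastq 2.20.0, HISAT2 2.1.0, Bowtie2 2.3.3.1, HTSeq and MACS 1.4.2 on mm10, per the submitters' processing notes. The deposited peak lists give tags as whole counts, a fold enrichment as a linear ratio and a score from 50 upward, per the file headers. The sources used here do not say which library served as control in each call, and the 4 input libraries were not analysed here. The ES tables hold raw counts per gene as the authors deposited them, 26995317 to 33771487 per library, and CPM was computed here. Tags in shared regions came to 1129012 to 1463863 per library.

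Tags and covered bp were summed per merged region and library (Python 3.11.15, pandas 2.3.3). edgeR 4.0.16 (TMM, robust quasi-likelihood, genotype only, Benjamini-Hochberg over 9763 regions) was the main test and DESeq2 1.42.0 an alternative, and the edgeR step was tested on simulated data. The exact tests are permutations over libraries. Starts and promoters come from RefSeq (GRCm38.p6). Regions were named by rank of the authors' fold, by length at the threshold and by nearness to 4 genes, for which gene bodies replaced starts because Mybl1 had no start entry. No member passed the test by which others would have been named. Members and lists were chosen with earlier results of these data known.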

Additional observations from a re-analysis of the deposited data

How the results depend on the processing

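The count of members was 7554 and 8881 with length limits of 3000 and 5000 bp, 8260 with peaks up to 200 bp apart merged, 8353 with overlaps of at least 200 bp, and 9260 to 10499 when a peak was required in 3 of the lists. It was 2057 with peaks of a score of at least 100. A filter on the false discovery rate was not run, because the lists analysed hold no such column. The share of members with a start was 0.509% to 0.682% under these limits and left-out libraries, and 1.296% within 1 kb. Tag calls were 0 in both directions with DESeq2 size factors in edgeR, total tags, at least 30 tags, members only and each library left out. DESeq2 called 11 higher and 10 lower (17 and 25 of all shared regions), the length offset 172 and 39, and 10 and 17 were called among 2336 members with 1 peak a list and like covered length. That fit held only those 2336 regions. They were chosen for covered lengths that vary little between libraries, and tags follow covered length. The calls in that set therefore do not measure the spread of tags between animals. With a replicate block edgeR called 0 and 0 (594 and 424 at an unadjusted p under 0.05). Deviations of same-numbered libraries had a correlation of -0.00649, so the tags showed no deviation shared by libraries of the same number. Whether same-numbered samples were prepared together cannot be told from this. Without one library each, the difference in covered length was -122 to -64.8 bp and that in tags per kb -8.21 to 2.16, turning positive without wild-type library 1. The share of genes at 1 CPM in control was 23.8% without either library, 23.8% at 5 CPM and 34.7% for starts within 1 kb. Listed genes with a start in a member numbered 1, and 9 at 10 kb, a distance chosen after seeing the data. In the main edgeR test, with 2 libraries a genotype, the biological coefficient of variation was 0.177 and no member was called. This includes the members with log2 changes of -1.80 and 1.80. DESeq2 called the member at 1.80 (DESeq2 adjusted p 0.00216), and its result for the member at -1.80 is not given here.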
